A study of Mus musculus with 16 samples.

Results

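The aryl hydrocarbon receptor (AHR) pathway was followed through 7 genes: the receptor Ahr, its partner Arnt, and the target genes Cyp1a1, Cyp1b1, Ahrr, Tiparp and Nqo1. They are found by gene name, and the set was chosen with the results of the ganglion cocultures known, in which Cyp1a1 stood out. All 7 were found among the 56941 genes of each of the 2 deposited expression tables, of which 21684 are protein-coding, and all 7 were measured well enough to be tested in both.

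The samples were bulk RNA-seq libraries of mouse cells grown for about 70 h in wells with permeable inserts, so that sympathetic neurons and fibroblasts shared medium without touching. The ganglion side consisted of superior cervical ganglion (SCG) explants from pups of postnatal day 1 to 4, with 8 to 13 explants per well in medium with serum and nerve growth factor. Explants were grown alone (SCG, n = 3), below 10000 MEFs (SCG+MEF, n = 3; the control fibroblast line NIH/3T3), or below 10000 mPSC1 cells (SCG+PSC, n = 4). The mPSC1 line is an immortalized line from mouse pancreas that stands in for cancer-associated fibroblasts, and it was sequenced after culture by itself (PSC, n = 3) or above explants (PSC+SCG, n = 3). No treatment or engineered allele was labelled for any of these groups. Each fibroblast population was 1 line, and explants keep their own glia, fibroblasts and vessels. Whether the SCG wells held an empty insert is not given in the sources used here, so the insert and the cells on it cannot be told apart.

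AHR is a transcription factor that waits in the cytoplasm, bound to the chaperone HSP90, until a ligand enters the cell. Ligands include dioxins, plant indoles and tryptophan products such as kynurenine. The bound receptor moves to the nucleus, pairs with ARNT, and binds a short response element near its targets. CYP1A1 and CYP1B1 are monooxygenases that oxidize many such ligands, while AHRR, a repressor related to AHR, and TIPARP, a mono-ADP-ribosyltransferase that modifies AHR, are known to dampen the response. NQO1, a quinone reductase, answers to AHR and also to NRF2, the factor that controls antioxidant genes.

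The stretch just before each start site is shown for the 4 target genes whose SCG levels differed most between groups, because the core of the AHR response element, GCGTG, is read directly from it. Each run is the 250 bases before the canonical transcript start of GENCODE M39 on GRCm39, 5′ to 3′ on the gene's own strand, with GCGTG or its reverse complement CACGC in capitals. None of the exons of these genes shares bases with another gene on the same strand. The window of Cyp1a1 lies within an intron of a longer annotated Cyp1a1 transcript.
Cyp1a1, chr9:57603892-57604141, plus strand: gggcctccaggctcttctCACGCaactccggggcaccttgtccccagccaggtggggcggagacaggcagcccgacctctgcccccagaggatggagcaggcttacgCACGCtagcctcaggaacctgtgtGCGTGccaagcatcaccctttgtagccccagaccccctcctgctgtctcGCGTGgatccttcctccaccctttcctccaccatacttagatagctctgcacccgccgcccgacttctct
Cyp1b1, chr17:80022533-80022782, minus strand: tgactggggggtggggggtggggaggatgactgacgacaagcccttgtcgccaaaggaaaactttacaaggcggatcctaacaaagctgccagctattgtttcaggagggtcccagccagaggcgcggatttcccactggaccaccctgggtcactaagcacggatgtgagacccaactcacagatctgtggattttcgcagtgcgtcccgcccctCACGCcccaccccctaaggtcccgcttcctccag
Ahrr, chr13:74440463-74440712, minus strand: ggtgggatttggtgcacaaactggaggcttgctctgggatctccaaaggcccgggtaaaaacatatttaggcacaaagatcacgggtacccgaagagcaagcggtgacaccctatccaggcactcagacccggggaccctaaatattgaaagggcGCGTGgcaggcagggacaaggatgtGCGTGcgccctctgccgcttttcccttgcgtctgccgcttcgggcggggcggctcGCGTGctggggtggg
Tiparp, chr3:65435070-65435319, plus strand: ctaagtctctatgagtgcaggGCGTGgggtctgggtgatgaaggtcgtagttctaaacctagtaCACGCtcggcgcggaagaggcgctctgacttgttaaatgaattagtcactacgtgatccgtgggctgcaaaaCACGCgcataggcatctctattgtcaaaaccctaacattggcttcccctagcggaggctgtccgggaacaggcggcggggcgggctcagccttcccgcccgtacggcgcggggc

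The Cyp1a1 window held 4 cores, the Ahrr and Tiparp windows 3 each and the Cyp1b1 window 1, while those of Ahr, Arnt and Nqo1 held none. At least 1 core stood in 31.2% of the 21608 protein-coding promoters of the same length, so the single core of Cyp1b1 is common. At least 3 cores were found in 620 promoters and at least 4 in 187. The longer motif TNGCGTG, of which the core is a part, occurred 3 times before Cyp1a1 and 1 time before Ahrr, against 4.82% of promoters with 1 or more. Only 2 of the 21608 promoters held 3 or more of them, Cyp1a1 included.

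In the 1500 bases before the start, TNGCGTG on either strand was found 6 times for Cyp1a1, 2 times each for Cyp1b1 and Ahrr, and 1 time for Nqo1. No match was found for Tiparp, Ahr or Arnt, and 15.49% of promoters had at least 1. Cyp1a1 was the 1 promoter with 6 or more. The matches beyond the first 250 bases are shown because they are the ones nearest to Cyp1b1 and Nqo1, with the motif in capitals and its first base counted back from the start.
Cyp1a1 at -630, chr9:57603503-57603527, plus strand: tgagttagaCACGCCAagttcagat
Cyp1a1 at -454, chr9:57603679-57603703, plus strand: cgagcatcgCACGCAAacccggccc
Cyp1a1 at -309, chr9:57603824-57603848, plus strand: tcccccagcTAGCGTGacagcactg
Cyp1b1 at -831, chr17:80023348-80023372, minus strand: gaagcggcgCACGCAAggcacagct
Cyp1b1 at -812, chr17:80023329-80023353, minus strand: acagctccgCACGCAAgggggaggc
Ahrr at -361, chr13:74440808-74440832, minus strand: aaggaggaaCACGCTAagtcttggt
Nqo1 at -290, chr8:108130209-108130233, minus strand: cccttccccTAGCGTGcaaaggtga

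The plain core was as frequent before Cyp1b1 as before Cyp1a1 over this wider window, at 10 each, a number reached by 42 promoters. Ahrr had 6, Tiparp 4, Nqo1 1, and Ahr and Arnt none, with 62.68% of promoters holding at least 1. These are matches of letters, not measured binding.

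**Figure D1:**
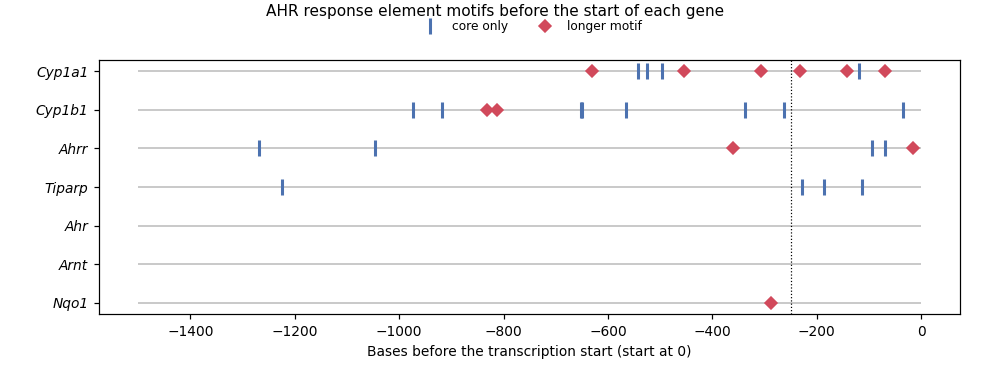
Positions of AHR response element motifs in the 1500 bases before the start of each gene. The x axis is the distance from the start in bases, bars are matches of the core alone, diamonds are matches of the longer motif, and the dotted line marks 250 bases. Cyp1a1 has 6 diamonds and Ahr and Arnt have no mark.

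Expression is given as normalized counts, the reads on a gene divided by a size factor of its library. Ganglion and mPSC1 libraries were scaled apart, so levels are compared within each table only. Reads on genes ran from 31900689 to 41632381 in the 14 libraries where they could be recovered from the values. The marker genes matched the labels: sympathetic neuron markers (Th, Dbh, Slc6a2, Ddc and Stmn2) summed to 72031 to 178691 normalized counts in the ganglion libraries and to 19.3 to 30.7 in the mPSC1 libraries, where Th was at 0 in PSC+SCG. The 6 fibroblast markers summed to 383049 to 665155 in the mPSC1 libraries. They also summed to 183932 to 381583 in the ganglion libraries, so the explants were a mixture that included collagen-producing cells. Epithelial and acinar markers summed to 27.4 to 105 in the ganglion and 42.4 to 207 in the mPSC1 libraries, and macrophage markers to 205.5 to 330 in the latter, with Adgre1 and C1qb at 0. Nothing in the labels ties replicates to separate litters or cultures, and p-values therefore measure the spread between these libraries, which may be technical.

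In SCG explants, the levels of 4 AHR target genes were higher next to either fibroblast line than alone, whereas the receptor and its partner differed little. Cyp1a1 differed most, with a mean 6.41-fold higher in SCG+MEF and 8.96-fold higher in SCG+PSC on the log2(normalized count + 1) scale. Ahrr was 4.12-fold and 2.90-fold higher, Cyp1b1 2.58-fold and 1.81-fold, and Tiparp 2.08-fold and 1.68-fold. The set was put together with results of these contrasts known, so the values that follow describe the genes, and nothing is read from whether they pass a threshold here.

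Cyp1a1, the xenobiotic-metabolizing enzyme that is the standard readout of AHR activity, stood at 301, 338 and 305 normalized counts in the SCG libraries. It stood at 1505, 2850.2 and 1923 in SCG+MEF and at 2128, 3806.5 and 2778.5 in SCG+PSC, with 2807 in SCG+PSC replicate 4. The SCG libraries were close to each other, the cocultured libraries spread over a wider range, and the lowest cocultured library was above the highest SCG library. The log2 fold change was 2.68 (SE 0.25) in SCG+MEF and 3.16 (SE 0.25) in SCG+PSC, each against the same 3 SCG libraries.

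Cyp1b1, which oxidizes estrogens and polycyclic hydrocarbons, was the most abundant member. It was at 3335, 5496 and 4870.0 normalized counts in SCG, 9694, 11102 and 14199 in SCG+MEF, and 8326, 8148 and 7747 in SCG+PSC, with 8487 in replicate 4. The 4 SCG+PSC libraries were tight and lay between the SCG and the SCG+MEF libraries. Its log2 fold change was 1.37 (SE 0.19) in SCG+MEF and 0.85 (SE 0.19) in SCG+PSC.

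Both feedback genes had means in the order SCG, SCG+PSC, SCG+MEF. The cocultures overlapped for Tiparp, and for Ahrr when replicate 4 was included. Ahrr, the repressor, was at 383, 250.2 and 425 normalized counts in SCG, 1597, 1146 and 1562 in SCG+MEF, and 1106, 886 and 1020.2 in SCG+PSC, with 1254 in replicate 4. The log2 fold change of Ahrr was 2.04 (SE 0.21) in SCG+MEF and 1.54 (SE 0.21) in SCG+PSC. Tiparp, which ADP-ribosylates the receptor, was at 1206, 1116 and 1072 in SCG, 2115, 2281 and 2703 in SCG+MEF, and 1747, 1751 and 2246 in SCG+PSC, with 2524 in replicate 4. For both genes all SCG libraries were below all cocultured ones, and SCG+PSC replicate 4 was the highest of its group. Tiparp had a log2 fold change of 1.06 (SE 0.14) in SCG+MEF and 0.75 (SE 0.14) in SCG+PSC.

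**Figure D2:**
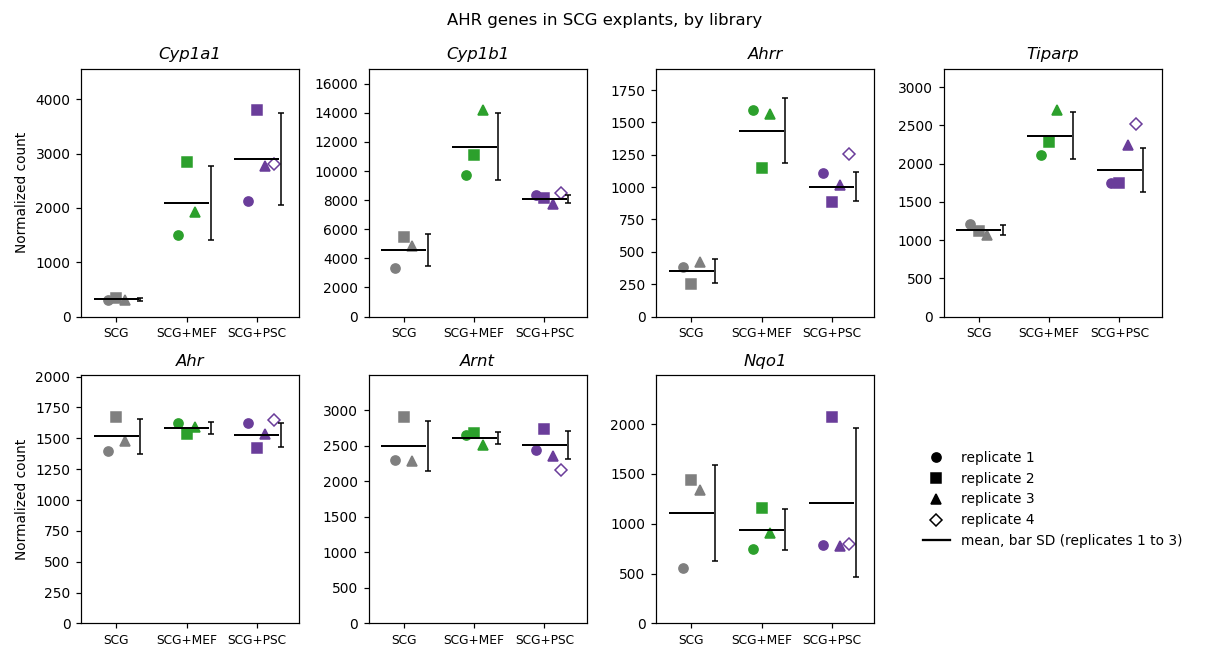
Normalized counts of the 7 genes in the 10 SCG explant libraries, by group. Each symbol is a library, the line is the mean of replicates 1 to 3 and the bar their SD, and every y axis starts at 0. Cyp1a1, Cyp1b1, Ahrr and Tiparp in SCG lie below every cocultured library, while Ahr, Arnt and Nqo1 overlap.

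Ahr itself, the ligand-binding receptor, ranged from 1400.3 to 1674 normalized counts in SCG, from 1531 to 1626 in SCG+MEF and from 1423 to 1621 in SCG+PSC replicates 1 to 3, with 1648 in replicate 4. Its log2 fold change was 0.06 (95% interval -0.18 to 0.31) in SCG+MEF and 0.01 (-0.23 to 0.25) in SCG+PSC. Arnt, the partner that AHR shares with the hypoxia-inducible factors, ranged from 2284 to 2911 in SCG, from 2519 to 2677 in SCG+MEF and from 2365 to 2742 in SCG+PSC replicates 1 to 3. Replicate 4, at 2157, was below all the SCG libraries. The Arnt log2 fold change was 0.08 (-0.19 to 0.35) and 0.02 (-0.25 to 0.29).

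Nqo1, the quinone reductase, did not separate the groups. Its normalized counts were 556, 1435.5 and 1339 in SCG, 749, 1163 and 912 in SCG+MEF, and 788, 2074 and 779 in SCG+PSC, with 793 in replicate 4. Replicate 2 was the highest library of each group, and the 2074 of SCG+PSC replicate 2 stood far above the 3 other libraries of its group. The log2 fold change of Nqo1 was -0.14 (-1.09 to 0.81) in SCG+MEF and 0.08 (-0.87 to 1.03) in SCG+PSC, and leaving out single libraries moved the latter from -0.38 to 0.33.

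Of the 7 genes, 4 had groups that did not overlap in SCG+MEF against SCG, all higher, beside 2.95% of the 15908 protein-coding genes tested. The same number did so in SCG+PSC against SCG, beside 4.33% of genes. As a description only, since the set was selected on these contrasts, the calls were as follows. With limma and no term for the replicate number, 2 genes (Cyp1a1 and Ahrr) passed both thresholds (0.05 for the adjusted p, 0.5 for the size of the log2 fold change) in SCG+MEF, where 0.0189% of all genes passed as higher. In SCG+PSC only Cyp1a1 did, again beside 0.0189%. With the replicate number as a block, Cyp1a1, Cyp1b1, Ahrr and Tiparp passed in both contrasts, beside 0.17% of genes in SCG+MEF and 1.76% in SCG+PSC. The call of Ahrr in SCG+MEF was lost without SCG replicate 1, SCG+MEF replicate 1, SCG+MEF replicate 3 or SCG+PSC replicate 3, and that of Cyp1a1 without SCG replicate 1 or SCG+MEF replicate 3, where the count of members fell to 0.

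Per kilobase of exon, which allows genes to be ranked, Cyp1b1 was highest in SCG at 692 ± 168 normalized counts per kb (SD, n = 3). Arnt at 412 ± 59.0 and Nqo1 at 404 ± 176 followed and did not differ beyond their spread, then came Ahr at 272 ± 25.4, within the spread of Nqo1. Tiparp was at 101 ± 6.09, Cyp1a1 at 80.6 ± 5.16 and Ahrr at 74.0 ± 19.2, and the last pair did not differ beyond the spread. In SCG+PSC, the mean of Cyp1a1 took the place after Cyp1b1, with 744 ± 217 against 1223 ± 45.0, above Arnt at 415.5 ± 32.8. Nqo1 at 442 ± 271 did not differ from Cyp1a1 beyond the spread. In SCG+MEF, Cyp1b1 was at 1767 ± 349 and Cyp1a1 at 536 ± 176, which did not differ from Arnt at 432 ± 14.2 beyond its spread.

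Bulk libraries cannot tell more cells of a type from more RNA per cell, and markers of 2 cell types had higher means in the cocultures too. The 5 endothelial markers (Pecam1, Cdh5, Kdr, Cldn5 and Tek) were all higher on average in both cocultures, none past the thresholds with or without the block. Their summed level was 1167 to 1789.1 normalized counts in SCG, 1789.4 to 2036.5 in SCG+MEF and 1821 to 2678 in SCG+PSC. All 6 fibroblast markers had a higher mean in both cocultures, with sums of 183932 to 363452 in SCG, 264129 to 381583 in SCG+MEF and 284788 to 365930 in SCG+PSC. None passed without the block. With it Dcn and Lum, proteoglycans of the collagen matrix, passed in SCG+MEF, where 0.17% of all genes passed as higher, and Lum passed in SCG+PSC, where 1.76% did. Their part in the levels of the AHR targets was not tested. Neuron, glial and macrophage sums overlapped between the 3 groups, and 1 glial gene, Fabp7, was lower in SCG+MEF with the block (log2 fold change -0.50, limma adjusted p = 0.0338).

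RNA of the mPSC1 cells on the insert was hardly visible in the explants. Of the protein-coding genes, 12 had at least 500 normalized counts in every PSC library and at most 5 in every SCG library, a rule set after the data were seen. Their sum averaged 17597 in PSC. In the explants it was 5.1 to 17.4 in SCG, 12.3 to 21.3 in SCG+MEF and 11.1 to 184.5 in SCG+PSC, at most 1.05% of the PSC mean. That share is approximate, since ganglion and mPSC1 libraries were scaled apart. Oas3, an interferon-induced enzyme, and Gm4951 made up most of the highest value, at 104 and 64.9. The other 10 genes summed to at most 15.2 in any SCG+PSC library. No library of the MEFs themselves was analysed here.

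Between the cocultures, the contrast of SCG+PSC with SCG+MEF asks whether the pancreatic line acted differently from the control line, and the genes were tested there. No member passed the thresholds with limma, with or without the block, beside 0% of the 15908 genes without it and 1.14% with it. Without the block 488 of those genes had an unadjusted p under 0.05, edgeR on recovered reads called 0 genes, and DESeq2 called 18. Cyp1b1 and Ahrr had groups that did not overlap among replicates 1 to 3, both lower in SCG+PSC, beside 7.01% of genes in either direction. SCG+PSC replicate 4 left Cyp1b1 apart but put Ahrr, at 1254, inside the SCG+MEF range.

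The 4 genes that were higher in coculture did not lean the same way in this contrast. Cyp1a1 was 1.40-fold higher in SCG+PSC than in SCG+MEF (log2 0.48, 95% interval -0.07 to 1.03), higher in 3 of 3 same-numbered pairs, with a limma adjusted p of 1 without the block and 0.111 with it. Cyp1b1 was lower by log2 -0.51 (-0.94 to -0.09), Ahrr by -0.50 (-0.97 to -0.04) and Tiparp by -0.31 (-0.61 to -0.001), each lower in 3 of 3 pairs. The limma adjusted p with the block was 0.115 for Cyp1b1, 0.0539 for Ahrr and 0.246 for Tiparp. The 95% intervals above are without the block. With it they were 0.21 to 0.76 for Cyp1a1 and -0.81 to -0.22 for Cyp1b1. For Ahrr the blocked interval was -0.74 to -0.27 and for Tiparp -0.54 to -0.08. These blocked intervals left out 0, but they are not adjusted for the number of genes tested. DESeq2 on recovered reads with the block, an alternative, put Ahrr and Cyp1b1 past the thresholds. Ahr at -0.05 (-0.30 to 0.19), Arnt at -0.06 (-0.33 to 0.21) and Nqo1 at 0.23 (-0.72 to 1.18) had intervals on both sides of 0.

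**Figure D3:**
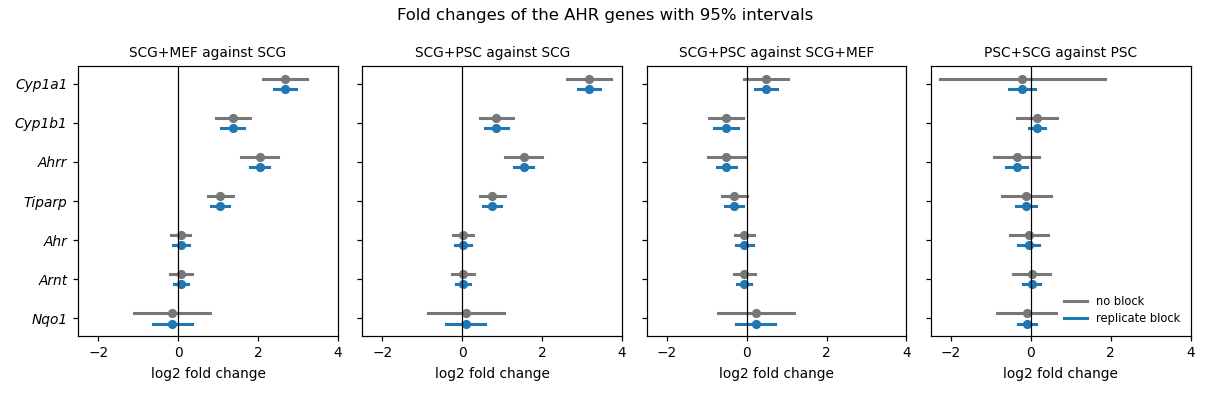
Log2 fold changes of the 7 genes (points) with 95% intervals (lines) in 4 contrasts, without (gray) and with (blue) the replicate number as a block. The genes were chosen with the first pair of contrasts known. In SCG+PSC against SCG+MEF the point of Cyp1a1 is at 0.48 and that of Cyp1b1 at -0.51. In PSC+SCG against PSC all 7 intervals without the block include 0.

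In the mPSC1 cells, coculture with SCG explants left the AHR genes without a detectable change. None of the 7 passed the thresholds with or without the block, beside 0% of the 14541 protein-coding genes tested without it and 0.523% with it. An unadjusted limma p under 0.05 was found for 205 of those genes without the block and for 886 with it. The absence of a call does not show that a level was unchanged. No member had groups that did not overlap, beside 4.37% of genes. These values come from 3 libraries a group and from a line whose Cyp1a1 level was far from steady.

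Cyp1a1 was at 528.5, 222.5 and 1365 normalized counts in PSC and at 474, 127 and 1674 in PSC+SCG. Replicate 3 was the highest and replicate 2 the lowest in each group, and the 6 libraries spanned 13.2-fold. The log2 fold change was -0.22 with a 95% interval of -2.28 to 1.84, which the block narrowed to -0.56 to 0.11 (limma adjusted p 0.866 with the block). The means of same-numbered libraries differed 8.69-fold, more than the groups did at 705 ± 591 and 758 ± 812 (SD, n = 3).

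Nqo1 had the same order of replicates over a smaller range, and Tiparp shared only its highest replicate in PSC. Nqo1 was at 2399.7, 2146 and 3658 in PSC and at 2279, 1635 and 4081 in PSC+SCG, and Tiparp at 2065, 2242 and 3018 and at 2312, 1481 and 3181. The means of same-numbered libraries differed 2.05-fold for Nqo1, 1.66-fold for Tiparp and 1.59-fold for Ahrr. Each of these genes was highest in replicate 3 in both groups. What differed between the replicates was not recorded in the labels used here.

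Ahrr had the largest difference of the 7 between the groups, at 985.1, 985.4 and 1314 in PSC and 866, 587 and 1189 in PSC+SCG. It was lower in 3 of 3 same-numbered pairs, by a log2 fold change of -0.36 (-0.93 to 0.21, with the block -0.62 to -0.10), and did not pass (limma adjusted p 0.9999, with the block 0.298). Cyp1b1 was at 13711, 9786 and 9583 in PSC and 16255, 10985 and 9959 in PSC+SCG, higher in 3 of 3 pairs by 0.16 (-0.34 to 0.65). Ahr, at 434 to 628 in PSC and 410.5 to 617 in PSC+SCG, gave -0.06 (-0.54 to 0.42), and Arnt, at 3343 to 4529.5 and 3055 to 4864, gave 0.02 (-0.45 to 0.48). Tiparp at -0.12 (-0.73 to 0.49) and Nqo1 at -0.10 (-0.84 to 0.64) also stayed within their spread.

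**Figure D4:**
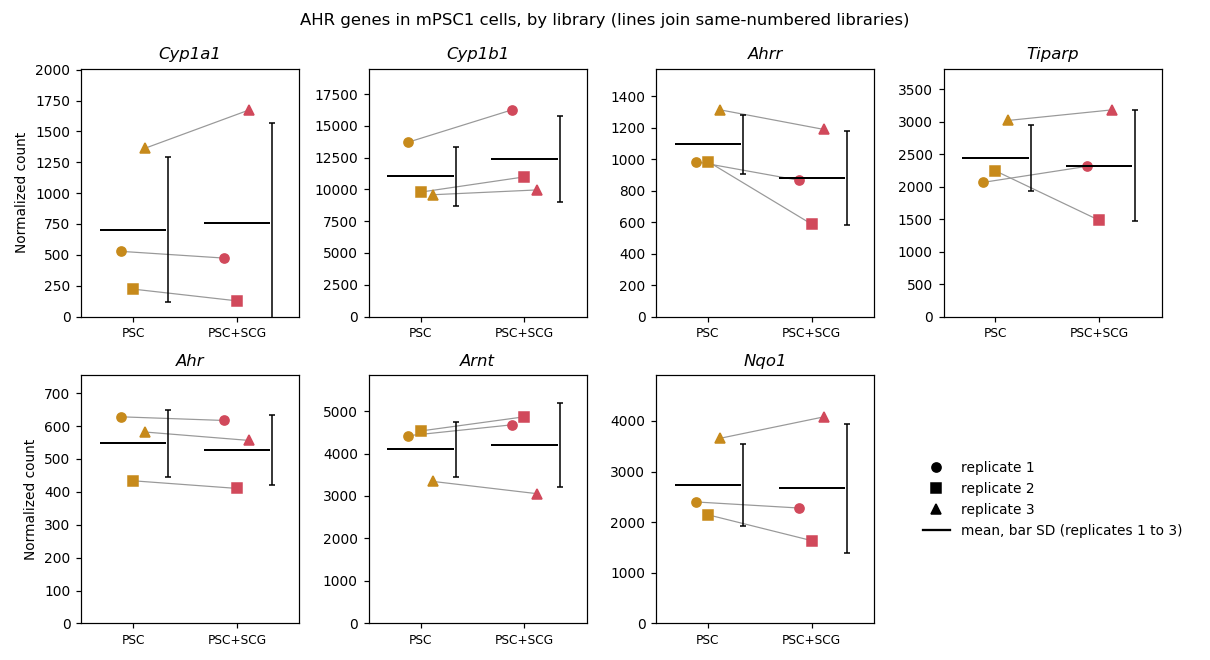
Normalized counts of the 7 genes in the 6 mPSC1 libraries, with gray lines joining same-numbered libraries, the group mean as a black line and the SD as a bar. Cyp1a1 runs from 127 to 1674 and follows the replicate number, with PSC and PSC+SCG libraries of 1 number close together.

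Per kilobase of exon, the PSC libraries had Cyp1b1 at 1670.1 ± 352.5, Nqo1 at 995 ± 295, Arnt at 676 ± 108, Ahrr at 230 ± 39.8, Tiparp at 217.5 ± 45.2, Cyp1a1 at 181 ± 151.5 and Ahr at 98.4 ± 18.2 normalized counts per kb (SD, n = 3). Ahrr, Tiparp and Cyp1a1 did not differ beyond their spread. Ahr had the lowest mean, within the wide spread of Cyp1a1, while in SCG it was above Tiparp, Cyp1a1 and Ahrr. Arnt2, a neuronal relative of Arnt that can also pair with AHR-type partners, was at 818 ± 218 normalized counts per kb in SCG and 119 ± 21.8 in PSC. These values were scaled apart and are not compared with each other.

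The rest of the pathway was read from lists. Over all genes, 0% to 0.0189% passed the thresholds without the block and 0.17% to 1.76% with it. These shares count higher genes in the contrasts against SCG and either direction in the other contrasts. Counts of 0 in lists this short therefore say little about a list. The 6 genes of the AHR complex and its cofactors (Hsp90ab1, Hsp90aa1, Ptges3, Arnt2, Ncoa1 and Ncoa2) had 0 members past the thresholds in any of the 4 contrasts, with or without the block. Their median log2 fold change was 0.03 in SCG+MEF and 0.003 in SCG+PSC against SCG, next to 0.03 and 0.007 over all genes, and -0.03 in PSC+SCG against PSC. Hsp90ab1, the chaperone that holds the unbound receptor, was at 78217 to 91360.0 normalized counts in SCG and 78326 to 88040.0 in the cocultures of replicates 1 to 3. Hsp90aa1, the inducible form, was at 30179 to 33827 in SCG.

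Among 15 further AHR target genes, 13 were tested in each table and none passed without the block. With it only Scin, an actin-severing protein, passed as higher in SCG+PSC (limma adjusted p = 0.0299), 1 of 13 beside 1.76% of all genes. It stood at 6.08, 9.51 and 3.07 normalized counts in SCG, at 30.4, 25.4 and 14.2 in SCG+MEF and at 32.6, 22.3 and 39.5 in SCG+PSC. Scin was thus a low-level gene whose SCG libraries lay below all cocultured ones of replicates 1 to 3. The median log2 fold change of the list was 0.15 in SCG+MEF and 0.25 in SCG+PSC, next to 0.03 and 0.007 over all genes, with 7 of 13 higher in each. Groups did not overlap for 3 and 5 of the 13, all higher, beside 2.95% and 4.33% of all genes.

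Cyp1a2 and Aldh3a1 were examined after their values were seen. Cyp1a2, the liver enzyme whose start lies 13155 bases from that of Cyp1a1 on the opposite strand, was at 0, 1.90 and 0 normalized counts in SCG, 6.08, 6.13 and 7.09 in SCG+MEF and 4.80, 3.04 and 6.41 in SCG+PSC. These are a few reads a library, higher in every cocultured library of replicates 1 to 3. Aldh3a1, an aldehyde dehydrogenase, was at 16.2, 14.3 and 8.20 in SCG, 9.12, 21.9 and 20.3 in SCG+MEF and 27.8, 76.0 and 31.0 in SCG+PSC. Its level in SCG+PSC replicate 4, at 7.06, was below all SCG libraries, so the difference rested on replicates 1 to 3.

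None of the abundant genes of that list passed the thresholds, with or without the block. Slc7a5, an amino acid transporter that carries tryptophan and kynurenine, had log2 fold changes of -0.01 (-1.04 to 1.02) and -0.04 (-1.07 to 0.99), with SCG replicate 3 at 9214 against 2911 and 3644 in the others. Nfe2l2, which encodes NRF2, was at 3168 to 4050.5 in SCG, 4101 to 4520 in SCG+MEF and 4128 to 4566 in SCG+PSC, a log2 fold change of 0.25 and 0.26 that did not pass. Xdh, xanthine dehydrogenase, was the highest of the list in the mPSC1 cells, at 9386 to 15706 in PSC and 7620 to 14748 in PSC+SCG.

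The 7 enzymes that turn tryptophan into kynurenine and related products, some of which are AHR ligands, were scarce. They summed to 64.6 to 151 normalized counts in SCG, 80.1 to 149 in SCG+MEF, 75.0 to 117 in SCG+PSC, 187 to 322 in PSC and 151 to 266 in PSC+SCG. Kmo was at 0 in all 5 groups (replicates 1 to 3 of SCG+PSC), and Kynu was at 0 in the mPSC1 libraries. In the explants Kynu was at 11.3 to 84.0 and Afmid at 23.6 to 31.4 in SCG, and in the mPSC1 cells Afmid was at 119 to 140 and Ido2 at 48.2 to 151 in PSC. Afmid shares 66.2% of its exon bases with another annotated gene on its strand, so its count is uncertain. No tested enzyme passed in any contrast, with or without the block, and the median log2 fold change was 0.11 in SCG+MEF, -0.26 in SCG+PSC and -0.57 in PSC+SCG, the last over 4 tested genes.

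NRF2 targets, which share Nqo1 with AHR, had 0 of 7 members past the thresholds in any contrast. Over all genes the share was 0% to 0.0189% without the block and 0.17% to 1.76% with it. The list medians were -0.11 in SCG+MEF, 0.04 in SCG+PSC and 0.13 in PSC+SCG. Groups did not overlap for Gsr in SCG+PSC (log2 0.28) and Gclc in PSC+SCG (log2 0.27), both higher. That is 1 of 7 in each, beside 4.33% of genes higher and 4.37% in either direction. Txnrd1, thioredoxin reductase, was at 7143 to 10923.5 in SCG and 7410.2 to 11369 in the cocultures. Srxn1, sulfiredoxin, was lower on average in both cocultures (log2 -0.22 and -0.29, neither past the thresholds). Hmox1, heme oxygenase, was at 5145 to 7385 in PSC and 5083 to 9150.5 in PSC+SCG.

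Genes driven by the hypoxia-inducible factors, which also pair with ARNT, had 0 of 9 past the thresholds in any contrast. Over all genes the share was 0% to 0.0189% without the block and 0.17% to 1.76% with it. All 9 had a higher mean in SCG+PSC than in SCG. The median log2 fold change was 0.60 there, against 0.01 over all genes, and 0.14 in SCG+MEF with 6 of 9 higher. The 9 genes were not higher in every pair: their median log2 difference was -0.11 in pair 1, with 1 of 9 higher, 0.26 in pair 2 with 8 of 9 and 1.498 in pair 3 with 9 of 9, so the list median was carried by replicate 3. Ldha, which makes lactate, was at 14061 to 19252.5 normalized counts in SCG, 12516 to 20969 in SCG+MEF and 18804 to 26325 in SCG+PSC. Vegfa, the vascular growth factor, was at 3044 to 3539, 3116 to 5150.3 and 3519 to 5912. In both genes the ranges touched or overlapped, and SCG+PSC replicate 3 was the highest library.

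**Figure D5:**
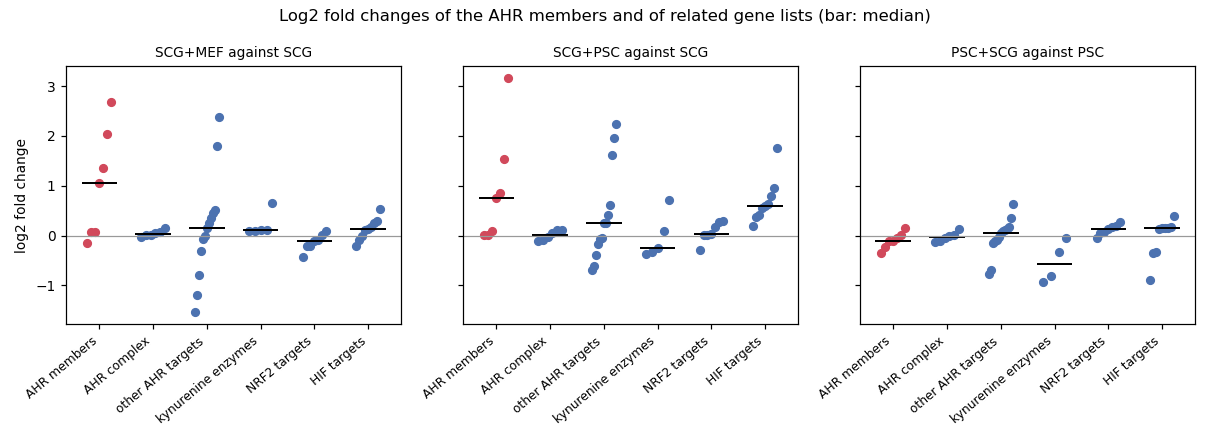
Log2 fold changes of single genes (dots) in the 7 AHR members and 5 related lists, with the list median as a bar, in the 3 contrasts of coculture against culture alone. The 4 highest members lie at 0.75 or above in both ganglion contrasts, the AHR complex stays close to 0, and the HIF targets have a median of 0.60 in SCG+PSC.

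Across the 10 ganglion libraries, the genes whose log2 values ran most like Cyp1a1 were Rcbtb2 (Pearson r = 0.94), Lrrc8d (0.93), Mmp8 (0.93), Ccr1 (0.92) and Hoxa2 (0.91), of 12849 genes with a mean of at least 50 normalized counts. Tiparp ranked 16 (0.86), Ahrr 23 (0.85) and Cyp1b1 53 (0.80), whereas Ahr (0.16), Nqo1 (0.08) and Arnt (0.05) ranked 4634, 5711 and 6123. Rcbtb2 averaged 1687 in SCG, 2125 in SCG+MEF and 2118 in SCG+PSC. Mmp8, a neutrophil-type collagenase, averaged 11.7, 64.4 and 113, and Ccr1, a chemokine receptor, 36.9, 90.7 and 160.2. The points share their 3 groups and their scaling, so these values mostly restate the difference between groups.

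Across the 6 mPSC1 libraries, the closest genes to Cyp1a1 were Rpl21 (r = 0.995), Rpl4 (0.991), Dctn6, Rbm17 and Uba2 (0.99 each), of 11666 genes. Rpl21 and Rpl4 encode ribosomal proteins. Nqo1 was at 0.975 and rank 42, Tiparp at 0.92, Ahrr at 0.87 and Ahr at 0.72. Cyp1b1 was at -0.16 and Arnt at -0.90. In the explants Cyp1b1 and Cyp1a1 were both higher in the cocultures than in SCG, but they leaned opposite ways between the cocultures. In the mPSC1 cells Cyp1b1 was highest in replicate 1, where Cyp1a1 was intermediate. With 6 libraries in 3 same-numbered pairs, these values describe the order of the replicates.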

How the data were processed

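Paired-end stranded mRNA libraries were aligned by the authors with STAR 2.7.10b to GRCm39 and reads per gene were divided by DESeq2 1.38.3 size factors (R 4.2.2), separately for the ganglion and the mPSC1 table. The deposited values are therefore a signal (normalized counts), not raw counts. In 14 of 16 libraries they were whole multiples of 1 read (within 0.1), and those reads were used for count tests as alternatives.

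Genes with a sum of at least 10 normalized counts were tested with limma 3.58.1 (trend, R 4.3.3) on log2(normalized count + 1). The p-values were Benjamini-Hochberg adjusted over all genes of the fit, of every gene type. Counts and shares are given for the protein-coding genes among them. The thresholds were 0.05 for the adjusted p and 0.5 for the size of the log2 fold change. Ganglion contrasts came from 1 fit of 9 libraries. SCG+PSC replicate 4, which has no same-numbered partner, was left out of it. The study modelled the experiment date, which the labels tie to no library. Same-numbered libraries deviated together from their group means (r = 0.392 to 0.78 over 9 ganglion pairs and 0.545 to 0.826 over 3 mPSC1 pairs). Different numbers gave -0.593 to 0.133 and -0.746 to 0.376. Deviations within a group cancel out, so these lower values follow in part from the same-numbered ones and are no separate evidence. From the same-numbered values the replicate number was taken to pair the libraries, which is not a stated design. Blocked fits are given where they change a call or narrow an interval. edgeR 4.0.16, DESeq2 1.42.0, quantile normalization, other pseudocounts, filters and left-out libraries were alternatives. Scripts were tested on simulated data.

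The members and lists were chosen with earlier results of these data known. One gene each of the AHR complex list and the neuron list is not reported here, and list values were computed without it. Named genes are the members, list genes past the thresholds or else the highest pair of each list, and the 5 genes most like Cyp1a1. Motifs were read from GRCm39 with GENCODE M39, and the authors counted on an earlier GENCODE release.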

Additional observations from a re-analysis of the deposited data

Results flagged for a closer look

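Nqo1 in the 4 SCG+PSC libraries had 1 library far from the others. The gap between replicate 2, at 2074 normalized counts, and the nearest of the other 3, which lay between 779 and 793, was 0.989 of the group's whole range, above Dixon's 95% critical value for 4 samples. Chance marks about 1 in 20 groups in this way. The same replicate had the highest Oas3 and Gm4951 levels of its group (104 and 64.9), and their part in the Nqo1 value was not tested.

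SCG+PSC replicate 4 was outside the fit and still lay above all SCG libraries for 4 genes. It had 2807 normalized counts of Cyp1a1, where SCG reached 338, and 8487 of Cyp1b1, where SCG reached 5496. It had 1254 of Ahrr and 2524 of Tiparp, where SCG reached 425 and 1206. Its distance from the SCG mean on the log2 scale was 3.15 for Cyp1a1, 0.93 for Cyp1b1, 1.86 for Ahrr and 1.16 for Tiparp. Its Ahr (1648), Arnt (2157) and Nqo1 (793) were 0.12, -0.20 and -0.37 from that mean. The library belongs to the same group as the other 3 and the same SCG libraries serve as its reference.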

How the results depend on the processing

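The count of members past the thresholds in SCG+MEF against SCG was 2, and 4 with the replicate block, 4 with DESeq2, 4 with DESeq2 and the replicate block, and 1 when only the 2 groups compared were fitted. In SCG+PSC against SCG it was 1, and 4, 4 and 4 in the same order, with 2 when all 4 SCG+PSC libraries were used. In SCG+PSC against SCG+MEF it was 0, and 2 with DESeq2 and the replicate block. Over all protein-coding genes, SCG+MEF against SCG gave 3, and 38 with the block, 21 with DESeq2, 104 with DESeq2 and the block and 1 with 2 groups. SCG+PSC against SCG gave 3, and 309, 58, 415 and 1, with 8 for all 4 libraries. SCG+PSC against SCG+MEF gave 0, and 181, 18 and 365. PSC+SCG against PSC gave 0, and 76 with the block, which changed no other call of a member. The cause of these moves was not tested, beyond the narrower intervals of the blocked fits. Leaving out single libraries gave 0 to 2 members and 0 to 3 genes in SCG+MEF against SCG, and 1 to 2 genes in SCG+PSC against SCG. Among members with a log2 fold change near 0, signs turned in SCG+PSC against SCG for Ahr with quantile normalization (-0.012) and for Arnt (-0.037) and Nqo1 (-0.029) with all 4 libraries. Leaving out single libraries there gave -0.045 to 0.083 for Ahr, -0.045 to 0.133 for Arnt and -0.384 to 0.328 for Nqo1. It gave -0.581 to 0.102 for Nqo1 in SCG+MEF against SCG and -0.242 to 0.464 in SCG+PSC against SCG+MEF. In PSC+SCG against PSC it gave -1.142 to 0.711 for Cyp1a1, -0.056 to 0.323 for Cyp1b1, -0.38 to 0.171 for Tiparp, -0.216 to 0.114 for Ahr, -0.122 to 0.232 for Arnt and -0.463 to 0.197 for Nqo1. Cyp1a1, Cyp1b1, Ahrr and Tiparp kept their sign in both contrasts against SCG under all alternatives run. In all, 452 of the recomputed values kept sign and side of the thresholds, 18 newly passed, 7 no longer passed and 27 changed sign.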
